A study of Mus musculus with 48 samples.

Results

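Microglia are the resident macrophages of the brain, and in the undisturbed tissue they carry a set of surface receptors and regulators that together mark their homeostatic state. The 9 genes described here, *P2ry12*, *P2ry13*, *Gpr34*, *Cx3cr1*, *Csf1r*, *Sall1*, *Tmem119*, *Siglech* and *Selplg*, belong to that set and were chosen by name. All 9 were found among the 46983 genes of the count tables by their Ensembl identifiers, and all 9 were among the 19970 that entered the test, each with a summed count above 10.

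RNA was taken, by the methods of the study, from the cortex of male C57Black/6 mice 3 months old. It was sequenced from the polyadenylated 3′ end in 48 libraries of 11 groups. The control was intact cortex of 3-month-old mice (4 libraries). Permanent middle cerebral artery occlusion (MCAO), in which a cortical artery is coagulated and cut and never reopens, was followed at 3 h, 12 h, 24 h, day 3 and day 7, with 5 libraries each and 4 at 24 h, and sham mice, operated without the occlusion, were taken at the same 5 times (4 libraries each). The MCAO tissue was the injured cortical region and held affected as well as unaffected tissue, so a level is an average over both. The study elsewhere describes the bulk pieces as most of the hemisphere on the lesion side, so the extent of the tissue is not certain. No genotype or drug separated the groups.

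Homeostatic microglia sense their surroundings through the products of these genes. *P2ry12* and *P2ry13* encode purinergic receptors for ADP, a nucleotide released by damaged cells, and *P2ry12* steers the extension of microglial processes towards it. *Cx3cr1* encodes the receptor for the neuronal chemokine fractalkine, and *Csf1r* the receptor for CSF1 and IL34, on which microglia depend for survival. *Sall1* encodes a transcription factor of microglial identity. Microglia that react to injury are known to lower many of these genes, while infiltrating monocytes and border macrophages also carry some of them, *Csf1r*, *Cx3cr1* and *Selplg* among them.

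Not all 9 genes passed the test at the same times. At 12 h after MCAO *P2ry12* fell to 4.41 ± 3.85 CPM (SD, n = 5) against 16.1 ± 8.48 CPM in the sham group (SD, n = 4), and it was the only one of the 9 that passed the test at that time. It passed in 2 of the 9 fits that left out 1 library. *Cx3cr1* and *Csf1r* had log2 fold changes of 0.30 and 0.01 at 12 h. By day 3 *Cx3cr1*, *Csf1r*, *Sall1* and *Siglech* had risen, *Csf1r* the most (4.79-fold), and on day 7 *Cx3cr1*, *Gpr34* and *Selplg* were higher than in sham. With 1 library left out, *Sall1* and *Siglech* passed on day 3 in 2 and 4 of 9 fits. None of the day 7 genes passed without MCAO day 7 replicate C. On day 3 the median log2 fold change of the 9 was 1.24 and that of 11 genes shared by microglia and macrophages was 3.32. CPM are counts scaled to the TMM-normalised library size, and a gene was called when edgeR's quasi-likelihood test gave a Benjamini-Hochberg adjusted p under 0.01 and the log2 fold change exceeded 0.58 in size. In bulk tissue, fewer cells of a type and less RNA per cell cannot be told apart.

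The libraries held 1522668 to 2826735 gene counts (median 1935856), and most of the 9 genes were counted in few reads. The median library held 26 reads of *P2ry12*, 15 of *Gpr34*, 17 of *Sall1* and 23 of *Siglech*, but 293 of *Cx3cr1* and 225 of *Csf1r*, so that *Cx3cr1* and *Csf1r* were measured with less counting error. Some libraries stood apart. MCAO day 7 replicate C held 4725 CPM of the summed pan-microglia and macrophage genes against 921.7 to 1257 CPM in the other 4 libraries of that group, MCAO day 3 replicate A held 531.2 CPM against 1461 to 3193 CPM in its group, and MCAO 12 h replicate C had the lowest value of all 48 libraries in 5 of the 9 genes. The calls against sham that change without one of them are given with both values.

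All 9 genes lie at separate loci of GRCm38. *P2ry13* (ENSMUSG00000036362.2, chromosome 3, 59207892 to 59210882, minus strand) and *P2ry12* (ENSMUSG00000036353.13, chromosome 3, 59216272 to 59262871, minus strand) are neighbours with 5389 bases between them, and both lie inside *Med12l*, which runs on the opposite strand. *Selplg* (ENSMUSG00000048163.13, chromosome 5, 113818536 to 113832644) and *Tmem119* (ENSMUSG00000054675.5, chromosome 5, 113793729 to 113800516) are also close, with 18019 bases between them. *Cx3cr1* (ENSMUSG00000052336.6) lies on chromosome 9 from 119901616 to 120069879, *Sall1* (ENSMUSG00000031665.6) on chromosome 8 from 89027235 to 89044162, *Siglech* (ENSMUSG00000051504.18) on chromosome 7 from 55768178 to 55778925 and *Gpr34* (ENSMUSG00000040229.11) on chromosome X from 13632089 to 13640858, within *Cask*. No exon of the 9 genes overlapped an exon of another gene on the same strand. On the opposite strand *Csf1r* shared 873 exon bases with *Hmgxb3*, *Cx3cr1* 78 with *Gm33858* and *P2ry12* 9 with *Med12l*, and the strand setting of the counting is not given in the sources used here, so reads from such stretches cannot be assigned with certainty.

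The 250 bases before the start of transcription are shown for 3 genes that the results set against each other: *P2ry12*, which fell at 12 h, its neighbour *P2ry13*, and *Cx3cr1*, which was not called there. The sequences are those of RefSeq (GRCm38.p6), each written 5′ to 3′ on the strand of its gene, and 5 of the 9 genes had an entry. Capitals mark GAGGAA or GGAAGT, 2 strings that overlap each other within the purine-rich motif of PU.1, the myeloid lineage factor encoded by *Spi1*, searched on both strands. Of 32851 promoters of this length, 23.3% held GAGGAA and 19.7% held GGAAGT, so a match is common.
P2ry12 (chr3:59262986-59263235, minus strand): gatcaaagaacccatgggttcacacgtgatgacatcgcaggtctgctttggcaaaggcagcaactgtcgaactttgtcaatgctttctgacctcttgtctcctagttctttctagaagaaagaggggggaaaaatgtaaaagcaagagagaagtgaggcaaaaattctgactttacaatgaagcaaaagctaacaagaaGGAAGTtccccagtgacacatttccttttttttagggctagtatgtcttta
P2ry13 (chr3:59210883-59211132, minus strand): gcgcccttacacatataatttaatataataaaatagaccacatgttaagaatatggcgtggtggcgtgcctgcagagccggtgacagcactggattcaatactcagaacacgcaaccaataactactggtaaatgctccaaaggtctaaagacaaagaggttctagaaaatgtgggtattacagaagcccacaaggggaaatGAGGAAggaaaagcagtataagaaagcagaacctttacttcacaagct
Cx3cr1 (chr9:120068297-120068546, minus strand): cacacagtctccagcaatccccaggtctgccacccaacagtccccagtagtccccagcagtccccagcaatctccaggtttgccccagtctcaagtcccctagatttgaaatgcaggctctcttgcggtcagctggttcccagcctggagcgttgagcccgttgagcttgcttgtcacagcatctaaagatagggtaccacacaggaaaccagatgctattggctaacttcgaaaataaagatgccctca
*P2ry12* held 1 match of GGAAGT, 51 bases before the start, and *P2ry13* held 1 match of GAGGAA, 48 bases before it. Neither string stands in the window of *Cx3cr1*, whose RefSeq start lies inside the wider Gencode locus. Among entries not shown, GGAAGT stands 156 bases before the start of *Siglech*, on the opposite strand, and 180 bases before a start of *Sall1*. Neither of these genes was called at 12 h. The matches are letters in a window and were not tested for binding.

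Among the purinergic receptors, *P2ry12* was at 15.6, 18.6, 10.7 and 17.7 CPM in the control libraries. At 12 h the sham libraries held 8.38, 17.7, 27.4 and 10.9 CPM (15, 34, 74 and 28 reads), and the MCAO libraries 10.4, 5.34, 1.56, 0.588 and 4.17 CPM (28, 11, 3, 1 and 7 reads). Of the 5 MCAO libraries 4 lay below every sham library, and replicate A of the MCAO group overlapped the lowest sham. The log2 fold change was -1.78 (standard error, s.e., 0.39, edgeR adjusted p = 0.00927), 3.43-fold lower. Of all genes tested, 0.0651% were called lower in this comparison and 0.411% in either direction. Against the intact control all 5 MCAO libraries lay below all 4 controls, as in 3.01% of all genes (log2 fold change -1.72, s.e. 0.40, edgeR adjusted p = 0.00951), where 0.471% of genes were called lower.

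The call of *P2ry12* at 12 h sat close to the threshold. It was kept in 2 of the 9 fits that left out 1 library of either group. Without MCAO replicate C it was -1.57 against sham (edgeR adjusted p = 0.0436) and -1.51 against control (edgeR adjusted p = 0.0361), called in neither. Without sham replicate C, the highest sham, the log2 fold change was -1.37 and the adjusted p 0.130 from edgeR, and without MCAO replicate A it was -2.44 (edgeR adjusted p = 5.56e-04). The direction was the same in all 9.

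At 24 h *P2ry12* was at 8.50, 4.67, 3.39 and 5.50 CPM after MCAO and at 15.4, 13.3, 15.9 and 13.1 CPM in sham. The groups did not overlap, which was so for 2.1% of all genes in this direction, yet the log2 fold change of -1.37 (s.e. 0.42) had an adjusted p of 0.204 from edgeR and was not called. The effect at 24 h minus that at 12 h was 0.40 (s.e. 0.58, edgeR adjusted p = 1.00) and did not pass the test.

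On day 3 the MCAO libraries held 15.5, 22.6, 22.0, 36.6 and 22.9 CPM of *P2ry12* and the sham libraries 16.7, 22.6, 14.5 and 10.8 CPM. The ranges overlapped and the log2 fold change was 0.57 (s.e. 0.35, edgeR adjusted p = 0.352). On day 7 the MCAO libraries held 29.4, 29.5, 25.0, 24.0 and 16.3 CPM, 4 of the 5 above every sham library, with a log2 fold change of 0.97 (s.e. 0.36, edgeR adjusted p = 0.0807). The effect on day 3 exceeded that at 12 h by 2.34 on the log2 scale (s.e. 0.52, edgeR adjusted p = 0.0187), which missed the threshold.

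*P2ry13*, which also encodes an ADP receptor and lies beside *P2ry12*, was not called at any time against sham. At 12 h it was between 3.65 and 24.1 CPM in the 5 MCAO libraries against 27.9, 22.4, 19.96 and 19.5 CPM in sham, a log2 fold change of -0.49 (s.e. 0.32, edgeR adjusted p = 0.505). At 24 h its log2 fold change was 0.33 where that of *P2ry12* was -1.37. On day 3 it was at 42.6 ± 12.7 CPM (SD, n = 5) against 19.6 ± 4.49 CPM (SD, n = 4), 4 of the 5 MCAO libraries above all shams, with a log2 fold change of 1.12 and an adjusted p of 0.0158 from edgeR. Replicate A, at 22.4 CPM, was the exception, and without it the adjusted p was 0.00338 and the gene was called.

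*Gpr34* encodes a receptor for lysophosphatidylserine. It was low at 12 h after MCAO, at 4.82, 4.85, 0.522, 3.53 and 3.57 CPM against 8.38, 8.34, 5.92 and 4.29 CPM in sham, with 1 to 13 reads in each MCAO library. The log2 fold change of -0.90 (s.e. 0.46) had an adjusted p of 0.3597 from edgeR. All 5 MCAO libraries lay below all controls, as in 3.01% of all genes (log2 fold change -1.10, edgeR adjusted p = 0.221). On day 3 it was at 8.01, 25.8, 38.0, 16.1 and 25.6 CPM against 9.07, 6.46, 8.88 and 9.84 CPM in sham, with replicate A of the MCAO group inside the sham range, and the log2 fold change of 1.401 was not called (s.e. 0.39, edgeR adjusted p = 0.0142). Without that replicate it was 1.61 and called (edgeR adjusted p = 0.0021). On day 7 it was at 13.8, 12.2, 60.7, 18.7 and 28.2 CPM against 10.9, 7.00, 3.27 and 8.67 CPM in sham. Every MCAO library lay above every sham, as in 5.38% of all genes, replicate C far above, and the log2 fold change was 1.83 (s.e. 0.40, edgeR adjusted p = 0.00223). Without replicate C it was 1.28 with an adjusted p of 0.0364 from edgeR, and the call was lost.

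**Figure D1:**
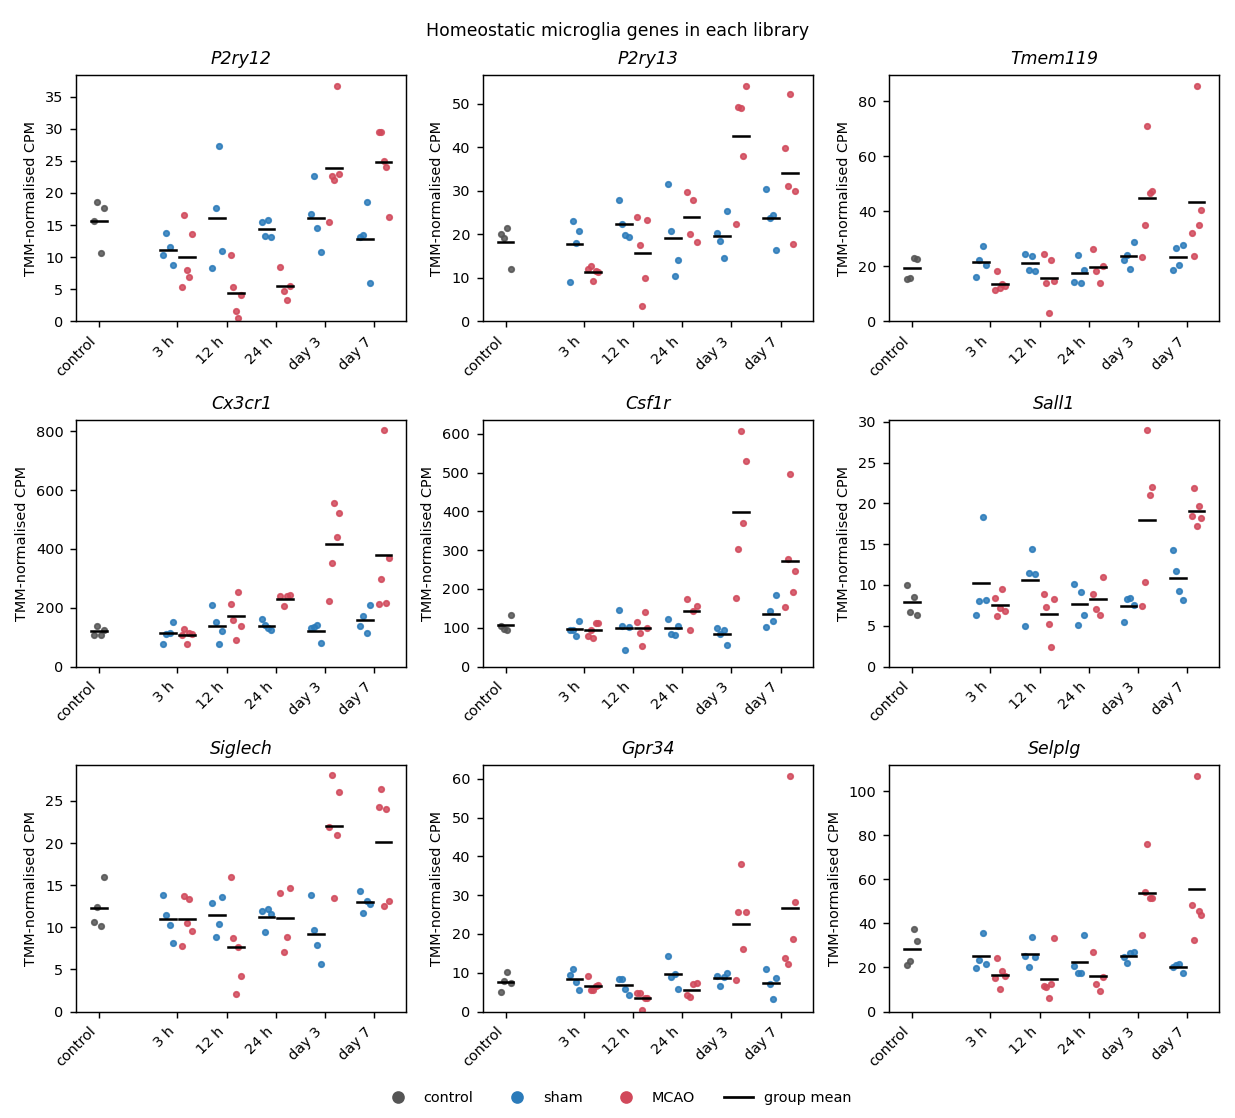
TMM-normalised CPM (y axis, linear and from 0) of the 9 homeostatic microglia genes in every library, by group (x axis). Points are libraries (grey control, blue sham, red MCAO) and black lines group means; *P2ry12* was lowest at 12 h and 24 h after MCAO, with means of 4.41 and 5.51 CPM, while *Cx3cr1* and *Csf1r* were highest on day 3, with means of 417 and 397 CPM.

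The fractalkine receptor gene *Cx3cr1* had positive values at 12 h and 24 h, where those of *P2ry12* were negative. At 12 h it was at 212, 158, 90.8, 253 and 138 CPM after MCAO and at 208, 153, 75.8 and 120 CPM in sham, overlapping, with a log2 fold change of 0.30 (s.e. 0.29, edgeR adjusted p = 0.676). At 24 h the 4 MCAO libraries held 239, 205, 239 and 242 CPM, all above the shams at 160, 142, 131 and 124 CPM. That lack of overlap was found for 3.73% of all genes in this direction, and the log2 fold change of 0.73 (s.e. 0.30, edgeR adjusted p = 0.439) was not called.

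On day 3 *Cx3cr1* was at 223, 351, 554, 439 and 521 CPM against 131, 135, 142 and 80.6 CPM in sham. Every MCAO library lay above every sham, as in 4.33% of all genes, the lowest being replicate A, and the log2 fold change was 1.77 (s.e. 0.29, edgeR adjusted p = 3.77e-05), 3.41-fold higher. On day 7 it was at 213, 299, 803, 215 and 368 CPM against 138, 172, 114 and 209 CPM, a log2 fold change of 1.26 (s.e. 0.29, edgeR adjusted p = 0.00355). Every MCAO library lay above every sham, as in 5.38% of all genes, the lowest of them only just above the highest sham. Without replicate C the day 7 value was 0.79 and the adjusted p 0.0610 from edgeR. The day 3 call held in all 9 fits that left out 1 library, with log2 fold changes from 1.61 to 1.93.

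*Csf1r* (ENSMUSG00000024621.15, chromosome 18), the gene of the CSF1 receptor, was at 114, 85.4, 53.7, 141 and 99.5 CPM at 12 h after MCAO and at 145, 104, 41.8 and 102 CPM in sham (log2 fold change 0.01, s.e. 0.29, edgeR adjusted p = 0.996). Sham 12 h replicate C, which had the most *P2ry12* of the 4 shams, had the least *Cx3cr1* and *Csf1r*. On day 3 *Csf1r* was at 176, 302, 608, 369 and 531 CPM against 99.0, 83.1, 93.9 and 55.3 CPM, with no overlap, as in 4.33% of all genes in this direction. The log2 fold change was 2.26 (s.e. 0.31, edgeR adjusted p = 1.32e-06), and it ranged from 2.05 to 2.45 over the fits that left out 1 library, called in all 9. On day 7 it was at 273 ± 134 CPM (SD, n = 5) against 136 ± 36.3 CPM in sham (SD, n = 4), and the difference of 1.00 on the log2 scale was not called (s.e. 0.29, edgeR adjusted p = 0.0217). Against the control it was (1.35, s.e. 0.30, edgeR adjusted p = 0.00403), but not without MCAO day 7 replicate C (1.02, edgeR adjusted p = 0.054).

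*Sall1* was counted in 4 to 24 reads per library at 12 h after MCAO, at 8.90, 7.28, 5.22, 2.35 and 8.34 CPM against 5.03, 11.5, 14.4 and 11.3 CPM in sham (log2 fold change -0.71, s.e. 0.34, edgeR adjusted p = 0.316). On day 3 it was at 7.47, 10.4, 29.0, 21.0 and 22.0 CPM against 5.44, 8.31, 8.41 and 7.50 CPM, higher in 4 of 5 libraries than in any sham and at the sham level in replicate A. The log2 fold change of 1.28 was called (s.e. 0.33, edgeR adjusted p = 0.00809), but in only 2 of the 9 fits that left out 1 library, where the adjusted p reached 0.0588. On day 7 it was at 18.5, 21.9, 17.3, 19.7 and 18.2 CPM against 14.3, 11.7, 9.27 and 8.21 CPM. These MCAO libraries lay close together and above all shams, as in 5.38% of all genes, and the log2 fold change of 0.82 (s.e. 0.32, edgeR adjusted p = 0.102) was not called.

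Of the other surface proteins, *Tmem119*, which encodes a transmembrane protein used as a marker that tells microglia from blood-derived macrophages, was at 24.5, 14.1, 3.13, 22.4 and 14.9 CPM at 12 h after MCAO and at 24.6, 18.8, 23.7 and 18.3 CPM in sham. The log2 fold change was -0.42 (s.e. 0.32, edgeR adjusted p = 0.587). It was at 44.8 ± 17.6 CPM (SD, n = 5) against 23.7 ± 4.12 CPM (SD, n = 4) on day 3 (log2 fold change 0.92, edgeR adjusted p = 0.0478) and at 43.5 ± 24.3 CPM against 23.5 ± 4.38 CPM on day 7 (0.88, edgeR adjusted p = 0.0629), called at neither time.

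*Siglech*, which encodes a sialic acid-binding lectin, was at 15.9, 8.74, 2.09, 7.65 and 4.17 CPM at 12 h after MCAO against 12.8, 8.86, 10.4 and 13.6 CPM in sham (log2 fold change -0.51, edgeR adjusted p = 0.483). On day 3 it was at 21.9, 28.0, 13.5, 21.0 and 26.0 CPM against 13.8, 9.69, 7.94 and 5.62 CPM, and the log2 fold change of 1.24 was called (s.e. 0.31, edgeR adjusted p = 0.00658). Here replicate C was the lowest of the 5, below the highest sham, although it had the most *Csf1r* and *Sall1*. The call was kept in 4 of the 9 fits that left out 1 library.

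*Selplg* encodes PSGL-1, a ligand of the selectins. At 12 h it was at 11.5, 11.2, 6.26, 12.4 and 33.4 CPM after MCAO and at 25.1, 20.3, 34.0 and 24.5 CPM in sham. Of the MCAO libraries 4 lay below all shams and replicate E lay at the level of the highest, and the log2 fold change was -0.83 (s.e. 0.33, edgeR adjusted p = 0.207). Without replicate E it was -1.33 and the adjusted p 0.0291 from edgeR. On day 3 every MCAO library, at 34.7, 54.2, 75.9, 51.8 and 51.6 CPM, lay above every sham, at 24.7, 22.2, 26.6 and 27.2 CPM, as in 4.33% of all genes. The log2 fold change was 1.09 (edgeR adjusted p = 0.0172), and without MCAO replicate A it was 1.21 and called (edgeR adjusted p = 0.00608). On day 7 the values were 48.5, 32.6, 107, 45.6 and 43.8 CPM against 20.03, 21.0, 21.8 and 17.3 CPM, with a log2 fold change of 1.46 that was called (s.e. 0.32, edgeR adjusted p = 0.00221) and of 1.09 without replicate C (edgeR adjusted p = 0.0273).

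**Figure D2:**
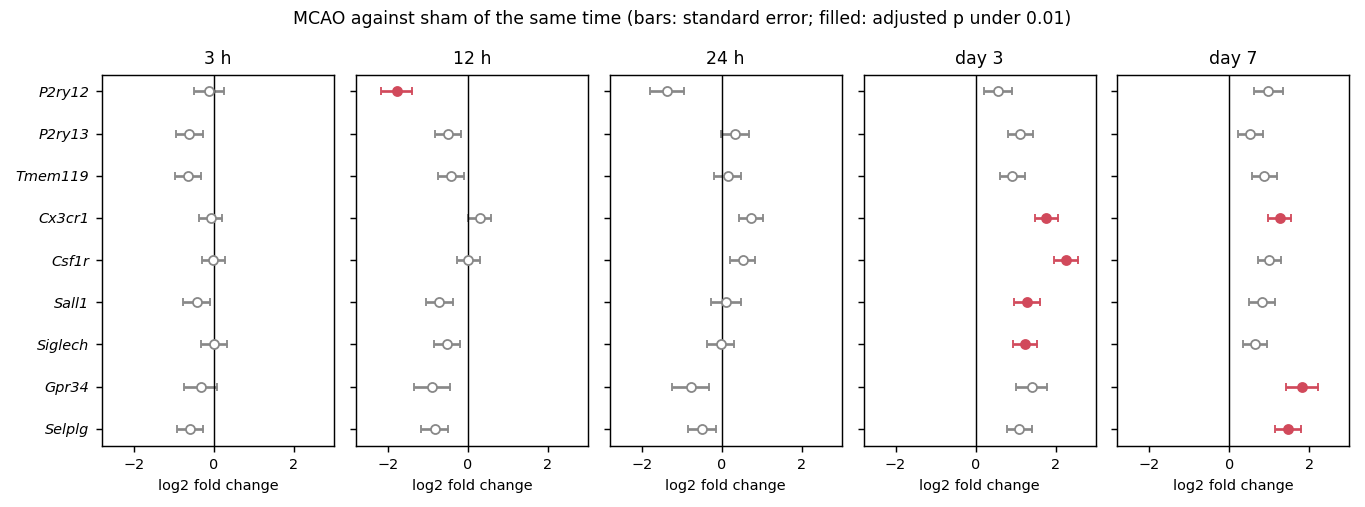
Log2 fold change of MCAO against sham of the same time (x axis) for each of the 9 genes (y axis), 1 panel per time, with s.e.s as bars. Filled points passed the test (adjusted p under 0.01). All 9 values were positive on days 3 and 7, 8 of 9 were negative at 3 h and 7 of 9 at 12 h. The lowest was *P2ry12* at 12 h (-1.78).

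Set side by side, 1 of 9 genes was called lower at 12 h, against 0.0651% of all genes. That call, of *P2ry12*, was kept in 2 of the 9 fits that left out 1 library. Of the log2 fold changes at 12 h, 7 of 9 were negative, with a median of -0.51 where that of all genes was 0.01. On day 3, 4 of 9 were called higher, against 3.76% of all genes, and all 9 values were positive (median 1.24, all genes 0.01). On day 7, 3 of 9 were called higher, against 2.07% of all genes (median 0.97, all genes 0.06). At 3 h none of the 9 was called by edgeR or by DESeq2, with 1 at an unadjusted p under 0.05 (*Tmem119*, log2 fold change -0.65, edgeR adjusted p = 0.588), where edgeR called 0.11% of all genes and DESeq2 0.29%. Of the 9 values at 3 h, 8 were negative (median -0.34, all genes 0). At 24 h none was called by either tool, with 2 at an unadjusted p under 0.05 (*P2ry12* and *Cx3cr1*), against 0.0901% of all genes by edgeR and 0.22% by DESeq2. There 4 values were negative and 5 positive (median 0.11, all genes 0.02). DESeq2 in place of edgeR called 7 of the 9 on day 3, *P2ry12* and *Tmem119* being the exceptions, where it called 4.71% of all genes higher. On day 7 it called 3, the same number as edgeR, where it called 3.39% of all genes higher.

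Scaled by the spike-ins, the median of all genes moved to -0.22 on day 3 and to 0.14 on day 7, and genes called higher and lower numbered 463 and 131 on day 3 (750 and 52 with TMM) and 403 and 86 on day 7 (413 and 285 with TMM). With this scaling 2 of the 9 genes were called on day 3, *Cx3cr1* and *Csf1r*, and 4 on day 7, *Csf1r* (log2 fold change 1.08, edgeR adjusted p = 0.00651) beside *Cx3cr1*, *Gpr34* and *Selplg*.

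Leaving out both MCAO day 7 replicate C and MCAO day 3 replicate A moved these counts in opposite directions. On day 3, 8 of the 9 genes were then called, all but *P2ry12*, and on day 7 none was by edgeR. Of all genes, 6.04% were called higher on day 3 in that fit and 0.987% on day 7.

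Against the intact control, 3 genes were called higher on day 3 (*Cx3cr1*, *Csf1r* and *Gpr34*, where 2.81% of all genes were called higher) and the same 3 on day 7 (1.09% of all genes). *Cx3cr1* had a log2 fold change of 1.81 on day 3 (edgeR adjusted p = 4.96e-05) and of 1.67 on day 7 (edgeR adjusted p = 3.52e-04), and *Gpr34* of 1.57 (edgeR adjusted p = 0.0094) and 1.79 (edgeR adjusted p = 0.00495). Without MCAO day 7 replicate C only *Cx3cr1* stayed called on day 7 (1.20, edgeR adjusted p = 0.00783), and *Gpr34* was at 1.25 (edgeR adjusted p = 0.0934). Without MCAO day 3 replicate A *P2ry13*, *Sall1* and *Tmem119* were called on day 3 too, and 4.46% of all genes were called higher. None was called at 3 h by edgeR or DESeq2 (1 at an unadjusted p under 0.05; 0.13% of all genes called by edgeR and 0.391% by DESeq2) or at 24 h (3 at an unadjusted p under 0.05; 0.28% and 0.596% of all genes called). At 3 h all 9 values against control were negative (median -0.20). The comparisons with control share its 4 libraries.

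None of the 9 genes was called in sham against control at any of the 5 times by edgeR or DESeq2, and none had an unadjusted p under 0.05, while edgeR called 0.0351% of all genes at 12 h, 0.01% at 24 h and 0% at the other times, and DESeq2 at most 0.0501% at any time. Their log2 fold changes against control ran from -0.50 (*Selplg* on day 7) to 0.45 (*Sall1* on day 7). When the 11 groups were put in order of the mean level, the ranges of every pair of neighbours overlapped in each of the 9 genes. The lowest group was MCAO 12 h for *P2ry12*, *Sall1*, *Siglech*, *Gpr34* and *Selplg*, MCAO 3 h for *P2ry13*, *Tmem119* and *Cx3cr1*, and sham day 3 for *Csf1r*. The highest was MCAO day 3 or day 7 for all 9.

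Whether the response changed with time was tested on the effects themselves. From 12 h to day 3 the MCAO over sham effect of *Csf1r* rose by 2.24 on the log2 scale (s.e. 0.41, edgeR adjusted p = 0.00442), and it was the 1 gene of the 9 that passed, where 0.0851% of all genes did. The differences of the other 8 ran from 1.34 (*Tmem119*) to 2.34 (*P2ry12*), and all 9 had an unadjusted p under 0.05, as had 12.4% of all genes. DESeq2 called 5 of the 9, *P2ry12*, *Csf1r*, *Sall1*, *Siglech* and *Selplg*, where it called 0.641% of all genes. Without MCAO 12 h replicate C that of *Csf1r* was 2.09 (edgeR adjusted p = 0.0126) and not called. Left out one at a time, single libraries moved the number of the 9 called by edgeR between 0 and 4, and that of all genes between 4 and 132. Without MCAO day 7 replicate C and MCAO day 3 replicate A, 6 of the 9 were called, and 1.3% of all genes. Between 3 h and 12 h, 12 h and 24 h, 24 h and day 3, and day 3 and day 7 none of the 9 differences was called by edgeR or DESeq2 (at most 0.01% of all genes were by edgeR and at most 0.225% by DESeq2), with 1, 0, 7 and 1 genes at an unadjusted p under 0.05. The gene with the unadjusted p from 3 h to 12 h was *P2ry12* (-1.65, s.e. 0.55, edgeR adjusted p = 0.542), and that from day 3 to day 7 was *Csf1r* (-1.26, s.e. 0.41, edgeR adjusted p = 0.126).

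Each gene was also read against others of the same library. Relative to *Csf1r*, the log2 ratio of *P2ry12* after MCAO differed from sham by -2.21 at 12 h (exact permutation test, two-sided, p = 0.0476, adjusted p = 0.163 over 24 ratio tests) and by -1.93 at 24 h (exact p = 0.0286, the smallest that 4 against 4 libraries can give, adjusted p = 0.114). At 24 h the MCAO libraries ran from -5.31 to -4.28 and the shams from -2.98 to -2.34 (log2 ratio of reads), with no overlap. The ratios of *Siglech* (-0.59), *Gpr34* (-1.26) and *Selplg* (-1.04) at 24 h did not overlap either. Each had the same exact permutation p of 0.0286 (adjusted p = 0.114). The ratio of *Cx3cr1* to *Csf1r* moved by 0.23 at 12 h and 0.22 at 24 h. None of the 24 ratios to *Csf1r* passed an adjusted p of 0.05, with 7 at an unadjusted p under 0.05, the smallest for *Tmem119* over days 3 and 7 (-0.74, exact permutation p = 0.00605 within days, adjusted p = 0.114).

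Read against the summed reads of 11 pan-microglia and macrophage genes (*Aif1*, *Itgam*, *Ptprc*, *Tyrobp*, *Fcer1g*, *C1qa*, *C1qb*, *C1qc*, *Ctss*, *Laptm5* and *Cd68*), the homeostatic genes took a smaller share after MCAO. At 12 h 6 of the 8 ratios tested were lower and passed, with *Cx3cr1* and *Sall1* the exceptions, at 24 h 6 of 8, with *P2ry13* and *Cx3cr1* the exceptions, and over days 3 and 7 all 8. The log2 ratio of *P2ry12* differed from sham by -2.79 at 12 h (exact permutation p = 0.0159, adjusted p = 0.0293), by -2.52 at 24 h (exact p = 0.0286, adjusted p = 0.0361) and by -1.70 over days 3 and 7 (exact p = 6.30e-04, adjusted p = 0.00252). That of *Cx3cr1* differed by -0.36 at 12 h (exact p = 0.302), by -0.36 at 24 h (exact p = 0.0857) and by -1.07 over days 3 and 7 (exact p = 3.78e-04, adjusted p = 0.00181). The exact p-values of 0.0159 and 0.0286 are the smallest that 5 against 4 and 4 against 4 libraries can give. Whether the ratios passed thus depended on the denominator. The 11 genes, which infiltrating macrophages also carry, summed to 308 to 599 CPM at 12 h after MCAO against 252 to 304 CPM in sham. They summed to 484 to 708 CPM against 230 to 327 CPM at 24 h. On day 3 the sums were 531 to 3193 CPM against 225 to 264 CPM, and on day 7 922 to 4725 CPM against 293 to 361 CPM. With a denominator that rose, a gene of unchanged level also has a lower ratio, so these ratios do not show a fall of the 8 genes. The share of all genes with such a ratio was not computed.

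**Figure D3:**
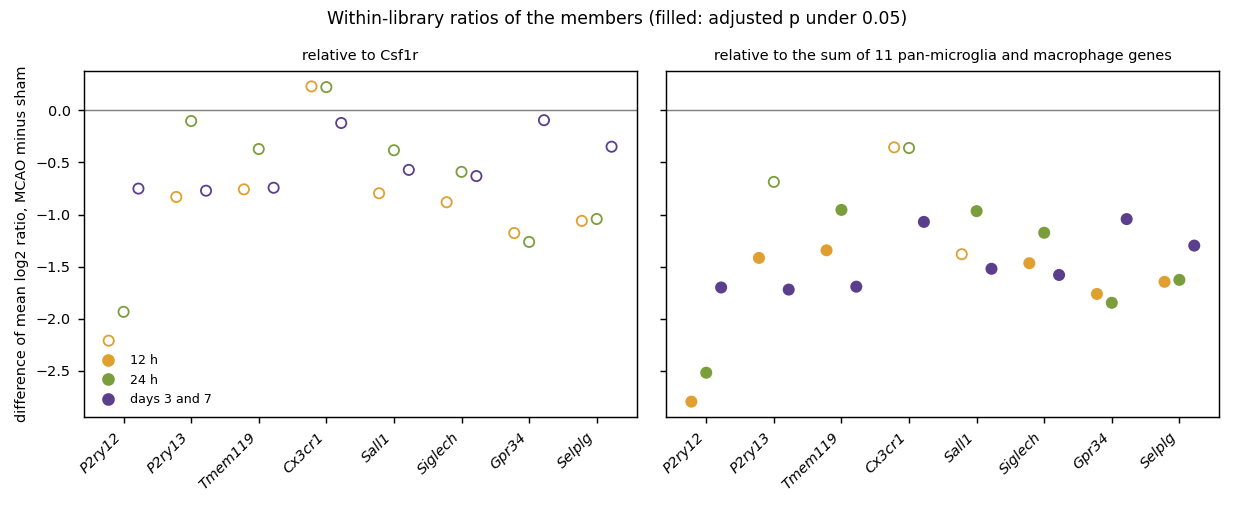
Difference between MCAO and sham of the mean log2 ratio (y axis) of 8 homeostatic genes (x axis) to *Csf1r* (left) and to the summed reads of 11 pan-microglia and macrophage genes (right), at 12 h, at 24 h and over days 3 and 7. Filled points passed an adjusted p of 0.05 (exact permutation tests); none of the 24 did on the left, and 6, 6 and 8 of 8 did on the right, all below 0.

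Genes of the same pathways were followed beside them. Of all genes, 3.76% were called higher on day 3 and 2.07% on day 7. Of 10 other homeostatic microglia genes (among them *Olfml3*, *Fcrls*, *Slc2a5*, *Crybb1*, *Entpd1*, *P2ry6* and *Slco2b1*), none was called at 12 h by edgeR (median log2 fold change -0.13, 4 positive), 8 were higher on day 3 (median 1.90) and 3 on day 7 (median 0.85). The largest on day 3 were *P2ry6*, a receptor for UDP (4.03), *Fcrls*, an Fc receptor-like protein (3.65), and *Olfml3*, a secreted protein (3.22). Those called on day 7 included *Fcrls* (2.24) and *Olfml3* (2.14). All 11 pan-microglia and macrophage genes were positive at 12 h (median 0.81, none called by edgeR), all 11 were higher on day 3 (median 3.32) and 10 on day 7 (median 2.51). Of these the largest on day 3 were *Ptprc* (3.77), *Tyrobp* (3.59) and *Cd68* (3.52). Of 11 reactive microglia genes, 7 were higher on day 3 (median 2.81) and 10 on day 7 (median 4.47), the largest on day 7 including *Spp1*, the gene of osteopontin (8.46), and *Gpnmb* (8.11).

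**Figure D4:**
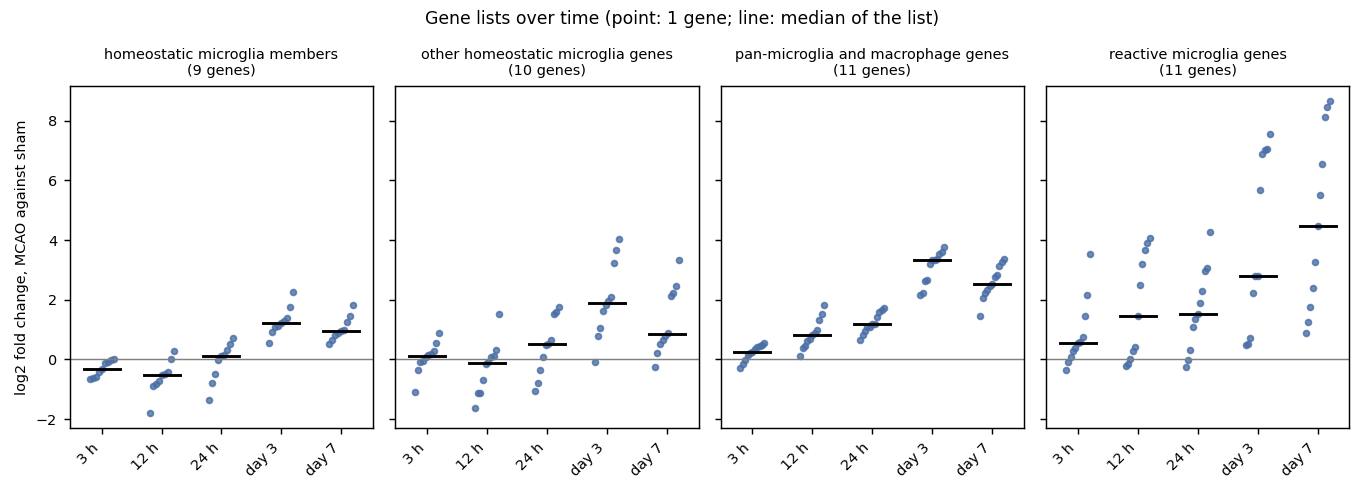
Log2 fold change of MCAO against sham (y axis) by time (x axis) for the 9 homeostatic microglia genes, 10 other homeostatic genes, 11 pan-microglia and macrophage genes and 11 reactive microglia genes. Points are genes and lines the median of each list, which on day 3 was 1.24, 1.90, 3.32 and 2.81.

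Of the transcription factors of the myeloid lineage, 5 of 8 rose on day 3, where 3.76% of all genes were called higher. They included *Spi1*, which encodes PU.1 (3.30), *Runx1* (3.00) and *Irf8* (2.62), against 1.28 for the microglial factor *Sall1*. On day 7, 3 of 8 were higher (*Irf8* 2.65 and *Cebpa* 1.84 the largest), where 2.07% of all genes were called higher. *Mef2c*, which neurons also carry, was lower (-0.91), as were 1.43% of all genes.

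Among the ligands and partners, neither ligand that neurons provide was called against sham at 12 h or on day 3. *Cx3cl1*, the gene of fractalkine, was at 358 ± 139 CPM at 12 h after MCAO (SD, n = 5) against 560 ± 217 CPM in sham (SD, n = 4; log2 fold change -0.65, edgeR adjusted p = 0.163), and *Il34* at 116 ± 59.8 CPM against 148 ± 73.2 CPM (-0.34, edgeR adjusted p = 0.587). Against the intact control *Cx3cl1* was called lower at 12 h (-1.03, edgeR adjusted p = 0.00829) and *Il34* was not (-0.19). On day 3 their values against sham were -0.62 and -0.11. *Csf1*, the other ligand of the CSF1 receptor, was at 22.9 ± 17.7 CPM against 10.4 ± 6.18 CPM at 12 h (edgeR adjusted p = 0.274) and was called on day 7 at 35.0 ± 22.4 CPM against 6.64 ± 3.19 CPM (log2 fold change 2.40, edgeR adjusted p = 0.0018).

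Of the selectins that bind PSGL-1, *Selp* and *Sele* had few reads. *Selp* was at 0 CPM in every sham library at 12 h and on day 3, and at 5.93 ± 6.31 CPM and 14.9 ± 17.8 CPM after MCAO (SD, n = 5), called on day 3 (edgeR adjusted p = 3.15e-04) and not at 12 h (edgeR adjusted p = 0.0267). *Sele* was at 0 CPM in every sham library, reached a mean of 1.47 CPM on day 3 after MCAO and was not called at any time. *Tyrobp*, an adaptor of microglial receptors, rose to 123 ± 67.9 CPM on day 3 (SD, n = 5) from 10.1 ± 1.71 CPM in sham (SD, n = 4). *Tgfb1*, whose product maintains the homeostatic state, was higher on day 3 (3.58, edgeR adjusted p = 3.61e-04), and of its receptors *Tgfbr2* was called on day 7 (2.56, edgeR adjusted p = 2.16e-04) and *Tgfbr1* was not (1.37, edgeR adjusted p = 0.0106).

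Markers of other cells are given beside these values, with 3.76% of all genes called higher on day 3 and 2.07% on day 7. Granulocyte markers (7 genes) summed to 12.98 to 1744 CPM at 12 h after MCAO and to 2.59 to 7.01 CPM in sham, where *Retnlg* and *Cxcr2* were at 0, and 2 of 7 were called higher (*S100a9*, 8.42, and *S100a8*, 7.50), as were 0.346% of all genes. MCAO 12 h replicate E, the library with the high *Selplg*, held the 1744 CPM. On day 3 they summed to 9.08 to 704 CPM against 2.34 to 6.53 CPM, with 3 of 7 called. Monocyte markers (7 genes) summed to 21.4 to 69.1 CPM at 12 h against 4.47 to 20.3 CPM in sham, where *Ccr2*, *Ly6c2*, *Plac8*, *Chil3* and *Ms4a4c* were at 0, with none called by edgeR. On day 3 they summed to 19.0 to 119 CPM against 8.70 to 44.8 CPM (2 of 7 called, *Ccr2* and *Plac8*), and on day 7 to 18.2 to 66.0 CPM against 5.47 to 17.3 CPM (1 of 7, *Plac8*). Border macrophage markers (7 genes, none at 0 in any group) summed to 32.03 to 235 CPM on day 3 against 14.99 to 19.9 CPM (3 of 7 called, *Pf4*, *Cbr2* and *F13a1*) and to 24.2 to 183 CPM on day 7 against 13.7 to 25.1 CPM (1 of 7, *Ms4a7*). In the intact control the monocyte markers summed to 11.7 to 25.7 CPM, with only *Ms4a4c* at 0, which overlapped MCAO at 12 h and on days 3 and 7. The border macrophage markers summed to 14.6 to 34.8 CPM there and the granulocyte markers to 6.70 to 14.1 CPM. The part of these cells in the levels of *Csf1r*, *Cx3cr1* and *Selplg* was not tested.

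Proliferation genes (7 genes) summed to 31.0 to 386 CPM on day 3 after MCAO against 15.5 to 37.7 CPM in sham, and to 50.4 to 303 CPM on day 7 against 23.3 to 28.6 CPM. Of the 7, 5 were called at each time (*Mki67* 7.10 on day 3), where 3.76% and 2.07% of all genes were called higher. MCAO day 3 replicate A, the lowest library of that group in 8 of the 9 genes, *Siglech* being the exception, held the 31.0 CPM, and MCAO day 7 replicate C the 303 CPM. Which cells carried these genes was not tested.

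**Figure D5:**
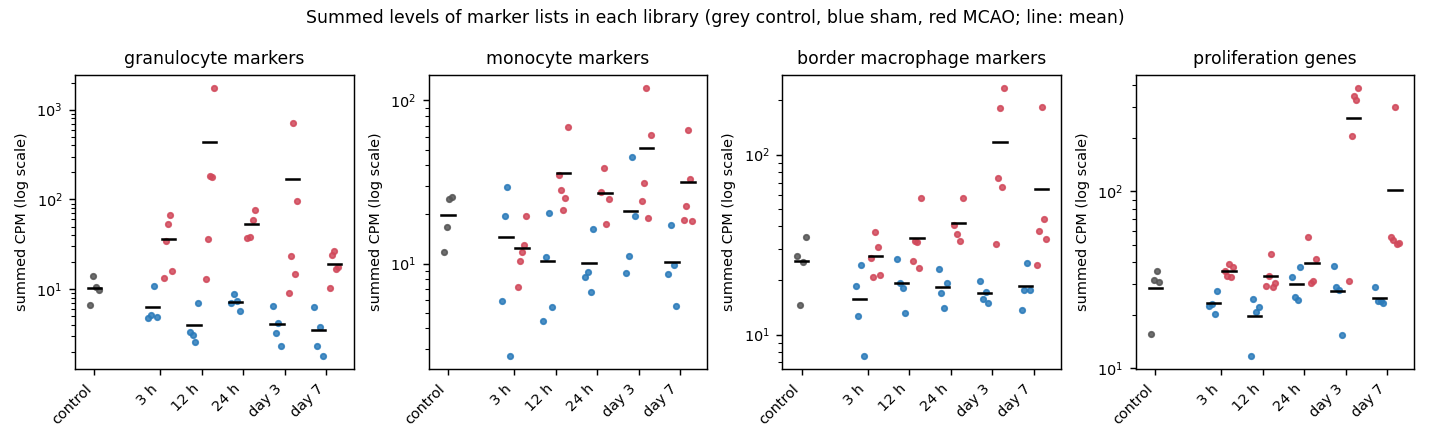
Summed CPM (y axis, log scale) of granulocyte, monocyte and border macrophage markers and of proliferation genes in every library, by group (x axis). Points are libraries (grey control, blue sham, red MCAO) and lines means; granulocyte markers reached 1744 CPM in 1 library at 12 h after MCAO, and proliferation genes 386 CPM on day 3.

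Among the resident cells, endothelial markers had 2 of 6 genes called lower at 12 h (*Slco1a4*, -1.12, and *Itm2a*, less far), as were 0.0651% of all genes. All 6 oligodendrocyte markers were negative there (median -0.82, none called by edgeR). Oligodendrocyte sums spanned 901 to 1911 CPM after MCAO and 1621 to 3686 CPM in sham at 12 h. Neuron markers had 1 of 8 lower on day 3 (*Snap25*, -0.67, where 0.26% of all genes were called lower) and 1 on day 7 (*Rbfox3*, -0.87). Astrocyte markers had 1 of 6 higher on day 3 (*Aqp4*, 0.94, where 3.76% of all genes were called higher) and 2 on day 7 (*Aqp4*, 1.47, and *Gja1*, 1.43). The mean of their sum was below that of sham before day 7. After MCAO and in sham it was 3212 and 3746 CPM at 3 h and 3180 and 4174 CPM at 12 h. It was 3030 and 3789 CPM at 24 h, 3007 and 3822 CPM on day 3, and 3757 and 3476 CPM on day 7. Of the endothelial markers 1 was higher on day 3 (*Pecam1*, 2.02). Only 3 of 7 T and NK cell markers passed the count filter, and *Trbc2* was lower on day 7 (-3.69). The part of these cells in the values of the 9 genes was not tested.

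The 9 genes were not equally alike over the 48 libraries. *Csf1r* and *Cx3cr1* followed each other most closely (Pearson r = 0.92 of log2 CPM, a description over libraries that share groups), and *P2ry12* and *Cx3cr1* least (r = 0.23). *P2ry13* was most like *Tmem119* (r = 0.78), *Tmem119* most like *Selplg* (r = 0.82), and *Siglech* most like *P2ry12* (r = 0.66). Outside the 9, *P2ry12* was most like *Itm2a* (r = 0.79), *Cx3cr1* like *Grn* (r = 0.94), *Sall1* like *Gsn* (r = 0.79), *Gpr34* like *Lamp1* (r = 0.81) and *Selplg* like *Hexa* (r = 0.84), among 11739 genes at a mean of 5 CPM or more. The mean of the 9 was most like *Ctss*, *Grn*, *Pld4*, *C1qc*, *Ctsd*, *Slco2b1*, *Plxnb2* and *Scamp2*, from r = 0.85 to r = 0.83. In the 24 MCAO libraries alone r with *Ctss* was 0.92, and in the 24 others it was 0.41. In those 24 others r was 0.46 with *Slco2b1*, 0.45 with *Grn*, 0.30 with *Plxnb2* and 0.30 with *Ctsd*. It was 0.02 with *C1qc*, -0.07 with *Scamp2* and -0.18 with *Pld4*. For the closest pairs named above, r in the 24 others ran from -0.11 (*Gpr34* with *Lamp1*) and 0.04 (*Siglech* with *P2ry12*) to 0.77 (*Csf1r* with *Cx3cr1*).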

How the data were processed

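The authors trimmed the single-end reads of 85 bases with Trimmomatic, filtered out reads of mitochondrial DNA and ribosomal RNA with SortMeRNA, and mapped what remained to GRCm38 and the spike-ins with STAR 2.5.2b. Counting used htseq-count (union mode) over the vM8 release of Gencode. From the deposited tables, 1 a library, the raw counts were used. The authors' matrix of variance-stabilised values on a log2 scale was not used. Reads without a feature (median 23.5% of alignments), ambiguous reads (0.400%), reads that were not unique (33.5%) and the 92 spike-ins stayed out of library sizes and tests. Symbols came from Gencode vM21 on the same build and matched 46488 of 46983 identifiers. The kit reads the 3′ end, so counts depend little on transcript length.

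Groups and replicate letters were taken from the labels. The fit was edgeR 4.0.16 in R 4.3.3 (TMM, estimateDisp, glmQLFit, glmQLFTest), 1 model of 11 groups and 20 comparisons over 19970 genes with more than 10 counts, with Benjamini-Hochberg adjustment in each comparison over all genes. The biological coefficient of variation was 24.9%. The fit was tested on simulated counts. Ratios were log2((count + 0.5) / (reference count + 0.5)), tested by exact two-sided permutation of libraries, for days 3 and 7 within each day, with 24 tests adjusted together at 0.05. Likeness was Pearson's r of log2(CPM + 1). Tables and figures were made in Python 3.11.15 with numpy 2.4.6, pandas 2.3.3 and matplotlib 3.10.9.

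The 9 genes, the gene lists and the rules were chosen with earlier results of these data known. The genes named were the 9 in every comparison, all listed ligands and partners, up to 3 called genes of each other list at 12 h, day 3 and day 7, and the genes most like the 9, of which some are not reported here. No 2 libraries of a group agreed within sampling noise (chi-square per degree of freedom 2.03 or more over 82 pairs). The study describes its bulk replicates as mice, and p-values measure the spread between libraries. No source used here says that a replicate letter marks a shared animal or batch. The alternatives were DESeq2's size factors, DESeq2 1.42.0, spike-in scaling, filterByExpr or no filter, only the compared groups, the replicate letter as a block, a pseudocount of 1 and another denominator for ratios, and each library left out in turn. Leaving out MCAO day 7 replicate C and MCAO day 3 replicate A together was added after results had been seen.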

Additional observations from a re-analysis of the deposited data

Results flagged for a closer look

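In 6 of 99 pairs of a gene and a group 1 library lay far from the others of its group, where chance alone gives about 1 in 20. MCAO day 7 replicate C was such a library for 3 genes, with 85.7 CPM of *Tmem119* against 23.9 to 40.7 CPM in the other 4, 803 CPM of *Cx3cr1* against 213 to 368 CPM, and 107 CPM of *Selplg* against 32.6 to 48.5 CPM. MCAO 24 h replicate B held 205 CPM of *Cx3cr1*, below the other 3 at 239 to 242 CPM. Sham 3 h replicate C held 18.4 CPM of *Sall1* against 6.33 to 8.18 CPM. MCAO 12 h replicate E held 33.4 CPM of *Selplg* against 6.26 to 12.4 CPM, and without it the log2 fold change of *Selplg* at 12 h was -1.33 in place of -0.83.

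The effect of MCAO over sham on *Csf1r* differed between 12 h and day 3 by 2.24 on the log2 scale (edgeR adjusted p = 0.00442), the only one of the 9 genes with a called difference between times in the fit of all libraries.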

How the results depend on the processing

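The 8 values called against sham kept their direction under every alternative run, while the number of genes called moved. At 12 h against sham 0 genes were called with DESeq2's size factors, spike-in scaling, only the compared groups or the replicate block, and 0 to 1 with 1 library left out (1 only without MCAO replicate A or sham replicate A). Of *P2ry12* there, the adjusted p ran from 9.16e-04 to 0.240 and the log2 fold change from -1.87 to -1.76 over the 7 alternatives that kept all libraries. On day 3 against sham 2 were called with spike-in scaling, 7 with DESeq2, 8 without MCAO day 7 replicate C and MCAO day 3 replicate A, and 2 to 7 with 1 library left out (7 without MCAO replicate A, 2 without MCAO replicate E or sham replicate B, C or D). On day 7 against sham 0 were called with only the compared groups or without those 2 libraries, and 0 to 4 with 1 left out (0 without MCAO replicate C, 1 without sham replicate C). Against control at 12 h 0 were called with DESeq2's size factors, only the compared groups or the block, and 0 to 1 with 1 library left out, and at 24 h 1 with only the compared groups. On day 3 against control 6 were called with DESeq2, 5 with filterByExpr, 5 with no filter, 6 without the 2 libraries, and 2 to 6 with 1 left out. On day 7 5 were called with DESeq2, 1 with only the compared groups, 1 without the 2 libraries, and 1 to 4 with 1 left out (1 without MCAO replicate C or control A, B or D). For the difference between day 3 and 12 h 5 were called with DESeq2, 3 with no filter, 0 with only the compared groups, 6 without the 2 libraries, and 0 to 4 with 1 left out. Without the 2 libraries 2 were called between 24 h and day 3 and 1 between day 3 and day 7, where 0.378% and 1.15% of all genes were. Against control that fit called 5.07% of all genes higher on day 3 and 0.473% on day 7. With the pan-microglia and macrophage sum as denominator 6, 6 and 8 ratios passed at 12 h, at 24 h and over days 3 and 7, and with 1 library left out 0 to 2 of those to *Csf1r* over days 3 and 7. Over all genes the alternatives that kept all libraries called 13 to 179 at 12 h (82 in the fit described), 16 to 55 at 24 h (18), 14 to 58 at 3 h (22), 339 to 1027 on day 3 (802), 302 to 1088 on day 7 (698) and 0 to 128 between 12 h and day 3 (17), fewest with only the compared groups at 12 h and on days 3 and 7. Against control they called 63 to 280 at 12 h (171), 39 to 126 at 24 h (56), 14 to 90 at 3 h (26), 224 to 855 on day 3 (619) and 165 to 461 on day 7 (300). With 1 library left out the counts against sham were 21 to 102 at 12 h, 6 to 21 at 24 h, 5 to 20 at 3 h, 441 to 1353 on day 3 and 241 to 676 on day 7, 4 to 132 between 12 h and day 3, and against control 71 to 171, 32 to 51, 10 to 40, 364 to 1075 and 82 to 318. The cause of these moves was not tested. The fit of only the compared groups has fewer libraries.

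Values near 0 that were called nowhere changed sign. With spike-in scaling *Siglech* was at -0.11 at 3 h and 0.089 at 24 h and *Csf1r* at -0.087 at 12 h, and with the block *Csf1r* was at -0.034 at 12 h. With 1 library left out the values ran at 3 h from -0.37 to 0.015 for *P2ry12*, -0.22 to 0.093 for *Cx3cr1*, -0.10 to 0.093 for *Csf1r*, -0.61 to 0.024 for *Sall1* and -0.11 to 0.16 for *Siglech*, at 12 h from -0.25 to 0.26 for *Csf1r*, and at 24 h from -0.049 to 0.32 for *Tmem119*, -0.040 to 0.27 for *Sall1* and -0.18 to 0.14 for *Siglech*. The replicate letter as a block took the call from *P2ry12* at 12 h, and the letters share only a name: deviations of same-letter libraries of different groups had a median r of 0.016 over 226 pairs. *P2ry12*, *Gpr34*, *Sall1* and *Siglech* had the fewest reads, and counting error was not separated from the spread between libraries.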
